A study of Mus musculus with 18 samples.

Results

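The genes described here are 8 secreted factors that act on blood vessels, 1 receptor and 1 enzyme. They are the vascular endothelial growth factors Vegfa, Vegfb and Vegfc, their relative Pgf (placental growth factor), the angiopoietins Angpt1 and Angpt2, the fibroblast growth factor Fgf1, the peptide apelin (Apln) with its receptor (Aplnr), and the endothelial nitric oxide synthase Nos3. They were taken from a list of names and not by their values, and all 10 were found among the 20922 genes of the table. Over the 18 libraries none had a mean normalized count below 10, although Pgf at 10.1 ± 4.52 (SD, n = 18) and Vegfc at 12.0 ± 5.88 (SD, n = 18) lay just above it.

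RNA was measured in the tibialis anterior muscle of mice at day 36 after ligation of 1 femoral artery, which models the poor limb perfusion of peripheral artery disease. The ligated limb was compared with the limb of the other side (intact) in mice with Bmal1, the activator of the circadian clock, deleted in skeletal muscle (BKO) and in control mice (WT). There were 4 ligated and 5 intact libraries for BKO and the same numbers for WT. Both genotypes carried floxed Bmal1 (Bmal1fx/fx) and received doxycycline by gavage before surgery, and Cre came from the transgene ACTA-rtTA-TRE-Cre, which directs the deletion to skeletal muscle. The labels write this transgene as -/- for BKO and +/+ for WT mice, the reverse of what a deletion by Cre needs, so each genotype direction rests on the group names. The labels used here state neither age nor the time of day of collection.

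The VEGF ligands bind receptor tyrosine kinases on endothelial cells and drive their growth, and VEGFC acts chiefly on lymphatic vessels. ANGPT1 activates the receptor TIE2 (encoded by Tek) and keeps vessels quiet, whereas ANGPT2 can block that signal. In muscle, Vegfa is made by the fibres themselves, and the apelin receptor and NOS3 are found mainly in endothelial cells, where NOS3 makes the nitric oxide that relaxes vessels.

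Reference promoter windows were held for 5 of the 10 genes (RefSeq, GRCm38.p6, the build called mm10 elsewhere). Windows of 250 bases before a start are shown for Vegfa, Apln and Vegfc because these 3 members changed in at least 1 comparison and have a window outside all exons of their gene. The Vegfa window is chr17:46032378-46032627 on the minus strand, the Apln window is chrX:48034854-48035103 on the minus strand, and the Vegfc window is chr8:54077282-54077531 on the plus strand.
Vegfa: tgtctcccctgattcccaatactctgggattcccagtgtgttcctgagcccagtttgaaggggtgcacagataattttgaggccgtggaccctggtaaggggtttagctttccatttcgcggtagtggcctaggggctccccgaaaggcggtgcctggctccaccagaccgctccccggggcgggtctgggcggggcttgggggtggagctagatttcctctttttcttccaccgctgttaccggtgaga
Apln: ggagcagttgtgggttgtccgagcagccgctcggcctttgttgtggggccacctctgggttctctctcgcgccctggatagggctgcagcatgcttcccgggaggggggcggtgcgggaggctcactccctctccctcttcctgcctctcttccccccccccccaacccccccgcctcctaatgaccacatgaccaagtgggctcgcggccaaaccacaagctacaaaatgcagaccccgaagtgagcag
Vegfc: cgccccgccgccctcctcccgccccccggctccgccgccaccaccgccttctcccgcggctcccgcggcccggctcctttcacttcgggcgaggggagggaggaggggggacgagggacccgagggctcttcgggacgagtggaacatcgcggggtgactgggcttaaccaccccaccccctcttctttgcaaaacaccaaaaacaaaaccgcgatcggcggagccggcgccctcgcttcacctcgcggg
Capitals would mark the E-box CACGTG, which BMAL1 and CLOCK bind, and the cores ACGTG or GCGTG of hypoxia response elements, searched on both strands, with an E-box always holding ACGTG. None of the 3 windows held either motif. Among 32851 promoter windows of that length, 6.02% held the E-box and 38.6% a hypoxia core. The Vegfb window held 2 hypoxia cores and no E-box. A start inside the Vegfa gene (chr17:46025164-46025413) also had 2 cores, but 218 of its 250 bases are exon sequence of Vegfa. Pgf had 2 windows that lie wholly within its exons. A motif found or missing in such a window describes these letters and says nothing of binding.

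The libraries held between 14.1 and 25.6 M reads each (M, mega). The mitochondrial ribosomal RNA mt-Rnr2 took 40.9 to 55.5% of the reads in BKO ligated, 33.6 to 36.1% in BKO intact, 38.1 to 45.3% in WT ligated and 31.9 to 34.3% in WT intact libraries. Total Bmal1 transcript was at 63.8 to 82.0 normalized counts in BKO ligated and 12.2 to 18.3 in WT ligated muscle, and at 42.4 to 61.1 in BKO intact and 41.3 to 68.4 in WT intact muscle. This total sums all exons, and no label names the deleted exon, so it does not check the deletion. All 12 tested genes that BMAL1 and CLOCK activate were lower in BKO intact than in WT intact muscle, where 9.75% of all genes were lower. In ligated muscle 10 of the 12 were lower in BKO, where 4.68% of all genes were lower. None of the 8 myofibre markers, which define the labelled tissue, was at 0 in any library.

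Per kilobase of exon, the order of the mean levels over 18 libraries was Vegfa at 303 ± 59.5, Vegfb at 226 ± 37.7, Fgf1 at 52.9 ± 22.7, Aplnr at 43.3 ± 32.1, Angpt1 at 25.6 ± 7.13 and Nos3 at 22.5 ± 8.68 normalized counts per kilobase (SD, n = 18). Below them came Apln at 9.17 ± 5.77, Angpt2 at 7.53 ± 2.23, Vegfc at 4.89 ± 2.40 and Pgf at 3.49 ± 1.56 (SD, n = 18). Vegfa and Vegfb were above all other members in every group. Between these, Vegfb had the higher mean in WT ligated muscle, at 265 ± 37.7 against 231 ± 57.6 for Vegfa (SD, n = 4). The order of the others pooled groups with different means and changed between limbs. Aplnr was above Fgf1 in ligated muscle, at 76.8 ± 5.85 against 37.4 ± 6.88 in BKO and 78.1 ± 12.0 against 32.6 ± 3.53 in WT (SD, n = 4). In intact muscle it was below Fgf1, at 15.1 ± 3.12 against 84.1 ± 10.9 in BKO and 16.7 ± 4.95 against 50.4 ± 12.2 in WT (SD, n = 5), and the libraries of these genes overlapped in none of the 4 groups. Nos3 likewise stood above Angpt1 in ligated and below it in intact muscle, with no overlap in any group. Vegfc and Pgf overlapped in all 4 groups. In single groups, Vegfc and Pgf fell under a mean of 10 in both intact groups, with Vegfc at 9.50 ± 4.11 in BKO and 7.36 ± 2.52 in WT and Pgf at 8.47 ± 3.25 in BKO and 8.75 ± 3.03 in WT intact muscle (SD, n = 5).

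**Figure D1:**
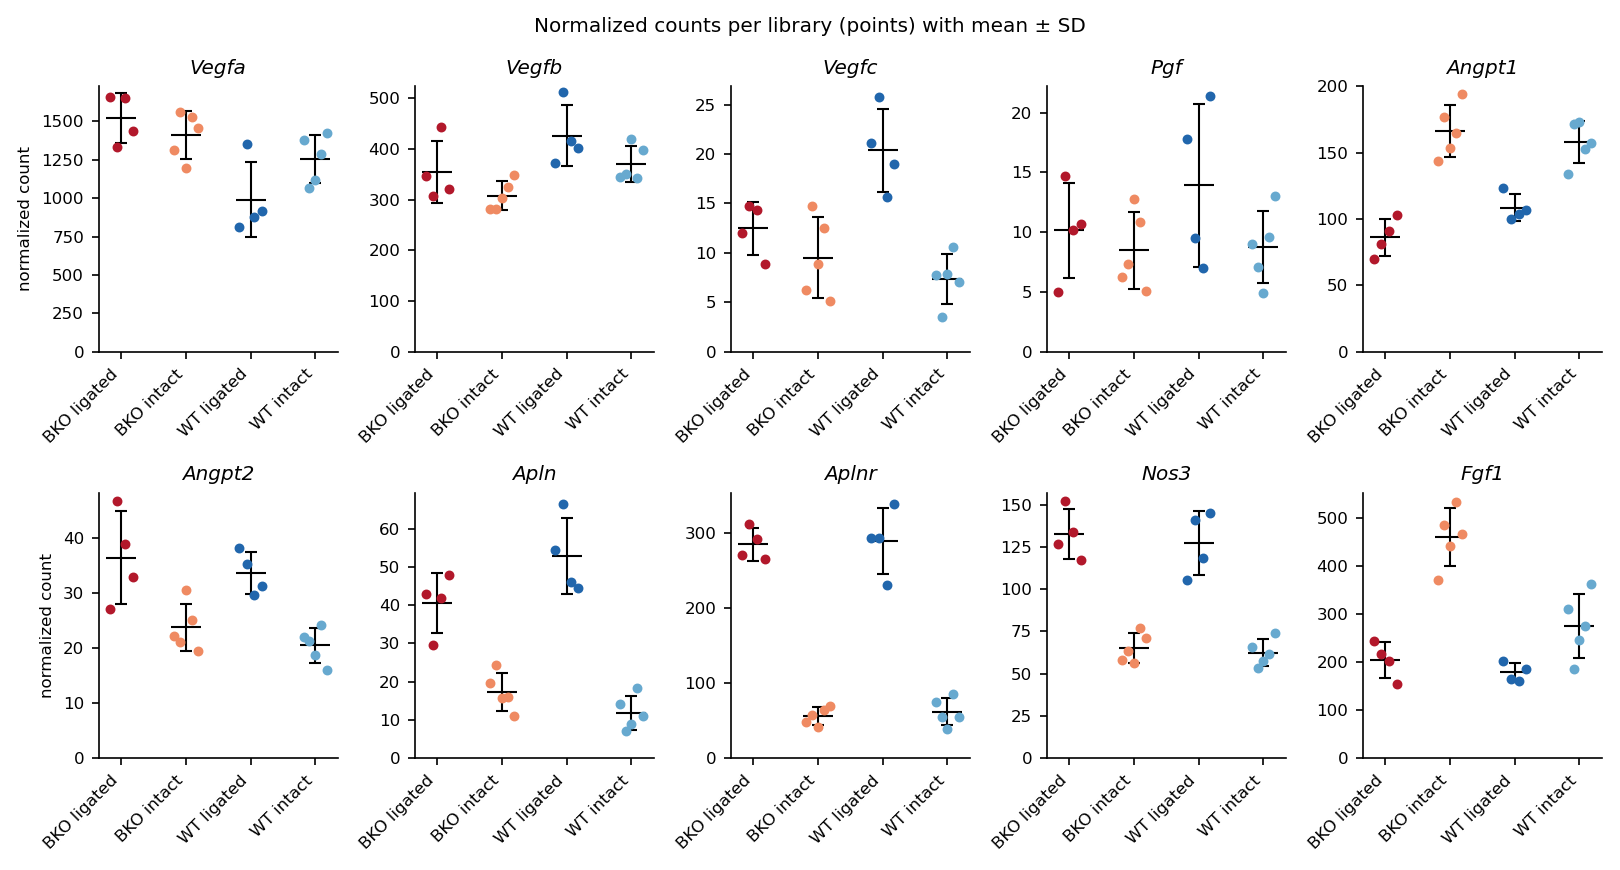
Normalized count of each gene (vertical axis from 0, 1 panel per gene) in the groups BKO ligated, BKO intact, WT ligated and WT intact; points are libraries and bars are group means with SD. Aplnr, Apln and Nos3 stand higher in both ligated groups, with Aplnr at 231 counts or more in every ligated library and 85.7 or less in every intact one.

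The comparison of ligated with intact limbs asks how these genes stood at day 36 after the vessel was closed. In BKO Aplnr had the largest change, and Apln at 1.20 and Fgf1 at -1.18 on the log2 scale came next, level in size within their errors. In WT Aplnr at 2.24 and Apln at 2.11 had the largest changes and were level within their errors. Aplnr rose about as much in BKO as in WT, Nos3 rose in both genotypes, and Angpt2 rose while Angpt1 fell. Fgf1 fell in both genotypes, Vegfa fell a little in WT by the main test, and Vegfc rose in WT. Of the 10 genes, 4 rose and 2 fell in BKO, where 47.2% of all 12262 genes tested changed (22.1% higher, 25.1% lower). In WT, 5 rose and 3 fell, where 39.8% of all genes changed (18.7% higher, 21.1% lower). When libraries were scaled to nuclear genes, 3415 genes were higher and 2259 lower in BKO and 4457 higher and 1145 lower in WT, against 2713 and 3077 in BKO and 2295 and 2585 in WT by the main test. The median log2 change of the 10 genes was 0.32 in BKO and 0.62 in WT, against -0.00 over all genes in both. In whole muscle, fewer cells of a type and less RNA per cell cannot be told apart.

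Aplnr (ENSMUSG00000044338, mm10 chromosome 2, 85136225 to 85139923) encodes a receptor coupled to G proteins. Its normalized counts were 269.8, 312, 291 and 264 in BKO ligated and 48.0, 56.9, 41.4, 64.5 and 69.5 in BKO intact muscle. In WT they were 293, 293, 231 and 338 in ligated and 74.9, 54.5, 39.4, 85.7 and 55.2 in intact muscle. No ligated library overlapped an intact one. Aplnr was 5.08-fold higher in ligated muscle of BKO (log2 change 2.34 ± 0.19, limma adjusted p = 8.3e-09) and 4.73-fold higher in that of WT (2.24 ± 0.19, adjusted p = 1.45e-08).

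Apln (ENSMUSG00000037010, chromosome X, 48025146 to 48034853) encodes the ligand of that receptor. Its normalized counts were 43.0, 29.5, 41.9 and 47.9 in BKO ligated and 19.6, 24.2, 15.8, 15.9 and 11.0 in BKO intact muscle. In WT they were 54.3, 66.4, 46.1 and 44.5 in ligated and 14.2, 7.11, 8.87, 18.3 and 11.0 in intact muscle. The ligated libraries lay above all intact ones in each genotype. The log2 change was 1.20 ± 0.26 in BKO (2.30-fold, limma adjusted p = 0.000816) and 2.11 ± 0.26 in WT (4.32-fold, adjusted p = 2.37e-06). Receptor and ligand both rose, and per kilobase the receptor stood higher, at 76.8 ± 5.85 normalized counts for Aplnr and 12.9 ± 2.49 for Apln in BKO ligated muscle (SD, n = 4).

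Nos3 (ENSMUSG00000028978, chromosome 5, 24364810 to 24384474) stood at 127, 152, 134 and 117 normalized counts in BKO ligated and 57.8, 63.2, 56.1, 77.0 and 71.2 in BKO intact muscle. In WT it stood at 105, 141, 118 and 145 in ligated and 65.8, 53.3, 57.2, 61.6 and 74.3 in intact muscle. All ligated libraries were above all intact ones. The rise was 2.03-fold in BKO (log2 change 1.02 ± 0.14, limma adjusted p = 5.27e-06) and 2.02-fold in WT (1.01 ± 0.14, adjusted p = 6.64e-06). Its exons overlap those of Atg9b and Gm15587 on the opposite strand, which had 41 and 3 reads over the 18 libraries against 1710 for Nos3.

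Angpt2 (ENSMUSG00000031465, chromosome 8, 18690263 to 18741562) had 27.0, 46.6, 38.8 and 32.8 normalized counts in BKO ligated and 22.2, 21.1, 30.5, 25.1 and 19.5 in BKO intact muscle. In WT it had 38.1, 35.3, 29.6 and 31.3 in ligated and 21.9, 21.3, 18.7, 24.1 and 16.1 in intact muscle. The WT groups did not overlap, and in BKO 3 of 4 ligated libraries were above all intact ones. The log2 change was 0.58 ± 0.20 in BKO (limma adjusted p = 0.0188) and 0.70 ± 0.20 in WT (adjusted p = 0.00776). The BKO call was lost without ligated replicate 4 (adjusted p = 0.0841) or replicate 5 (adjusted p = 0.0514). In these libraries mt-Rnr2 took the largest shares of that group, and without both the change was 0.33 (adjusted p = 0.300). The part of that RNA in the Angpt2 result was not tested.

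Angpt1 (ENSMUSG00000022309, chromosome 15, 42424723 to 42676977) moved the other way. It had 70.0, 81.0, 90.9 and 103 normalized counts in BKO ligated and 144, 177, 154, 165 and 194 in BKO intact muscle. In WT it had 123, 100.3, 104 and 107 in ligated and 134, 172, 173, 153 and 158 in intact muscle. In both genotypes all ligated libraries were below all intact ones. The log2 change was -0.95 ± 0.12 in BKO (1.93-fold lower, limma adjusted p = 3.52e-06) and -0.54 ± 0.12 in WT (1.45-fold lower, adjusted p = 0.00168).

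Fgf1 (ENSMUSG00000036585, chromosome 18, 38838673 to 38929472), a growth factor of the acidic FGF type that binds all FGF receptors, also fell. It had 244, 217, 201 and 154 normalized counts in BKO ligated and 371, 485, 442, 533 and 465 in BKO intact muscle. In WT it had 203, 165, 160.2 and 184 in ligated and 309.7, 185, 246, 275 and 361 in intact muscle. The BKO groups did not overlap, while in WT 3 of 4 ligated libraries were below all intact ones. The log2 change was -1.18 ± 0.16 in BKO (2.26-fold lower, limma adjusted p = 6.44e-06) and -0.60 ± 0.16 in WT (1.51-fold lower, adjusted p = 0.0056).

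Vegfa (ENSMUSG00000023951, chromosome 17, 46016993 to 46032369) is the best known VEGF and the main signal for new vessels. Its normalized counts were 1660.0, 1336, 1656 and 1437 in BKO ligated and 1314, 1564, 1197, 1529.6 and 1457 in BKO intact muscle. In WT they were 813, 1355, 878 and 917 in ligated and 1379.6, 1069.5, 1121, 1288 and 1422 in intact muscle. In WT, 3 ligated libraries were below all intact ones and 1, replicate 4, was among the highest. The log2 change was 0.11 ± 0.13 in BKO (95% interval -0.16 to 0.38, limma adjusted p = 0.508) and -0.36 ± 0.13 in WT (adjusted p = 0.0291). Without WT ligated replicate 4 the WT change was -0.52, and without any 1 of 6 other WT libraries (replicates 2, 5 and 6 of the ligated and of the intact group) it was no longer called, with an adjusted p of up to 0.117. The 3 falls in WT depend on the scaling. When libraries were scaled to nuclear genes, the median of all genes shifted by 0.27 in WT, and Vegfa was at -0.09 (adjusted p = 0.627), Angpt1 at -0.26 (adjusted p = 0.110) and Fgf1 at -0.32 (adjusted p = 0.130). Relative to that median they were at -0.36, -0.53 and -0.59.

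Vegfc (ENSMUSG00000031520, chromosome 8, 54077606 to 54187096) was a low gene. It had 12.0, 14.7, 14.3 and 8.87 normalized counts in BKO ligated and 6.22, 14.7, 8.86, 12.6 and 5.09 in BKO intact muscle. In WT it had 21.1, 25.8, 15.7 and 18.9 in ligated and 7.74, 3.55, 7.88, 10.6 and 7.02 in intact muscle. The WT ligated libraries were above all intact ones, while the BKO groups overlapped fully. The log2 change was 0.43 ± 0.34 in BKO (95% interval -0.27 to 1.13, limma adjusted p = 0.307) and 1.39 ± 0.34 in WT (2.63-fold, adjusted p = 0.00238).

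Vegfb (ENSMUSG00000024962, chromosome 19, 6982473 to 6987651), which binds FLT1, averaged 355 ± 61.0 normalized counts in BKO ligated and 308 ± 29.0 in BKO intact muscle, and 426 ± 60.5 in WT ligated and 371 ± 35.5 in WT intact muscle (SD, n = 4 ligated and 5 intact). Its log2 change was 0.20 ± 0.11 in BKO (limma adjusted p = 0.165) and 0.19 ± 0.11 in WT (adjusted p = 0.184). Under the scaling to nuclear genes it was called in both, at 0.32 in BKO (adjusted p = 0.0393) and 0.47 in WT (adjusted p = 0.00392), but relative to the shifted median of all genes it was at 0.20 in both, as in the main test. Pgf (ENSMUSG00000004791, chromosome 12, 85166635 to 85177790), which also binds FLT1, averaged 10.1 ± 3.99 in BKO ligated and 8.47 ± 3.25 in BKO intact muscle, and 13.9 ± 6.81 in WT ligated and 8.75 ± 3.03 in WT intact muscle (SD, n = 4 and 5). Its intervals were wide, from -0.59 to 1.03 in BKO and from -0.26 to 1.36 in WT on the log2 scale, and no change was detectable at these counts.

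**Figure D2:**
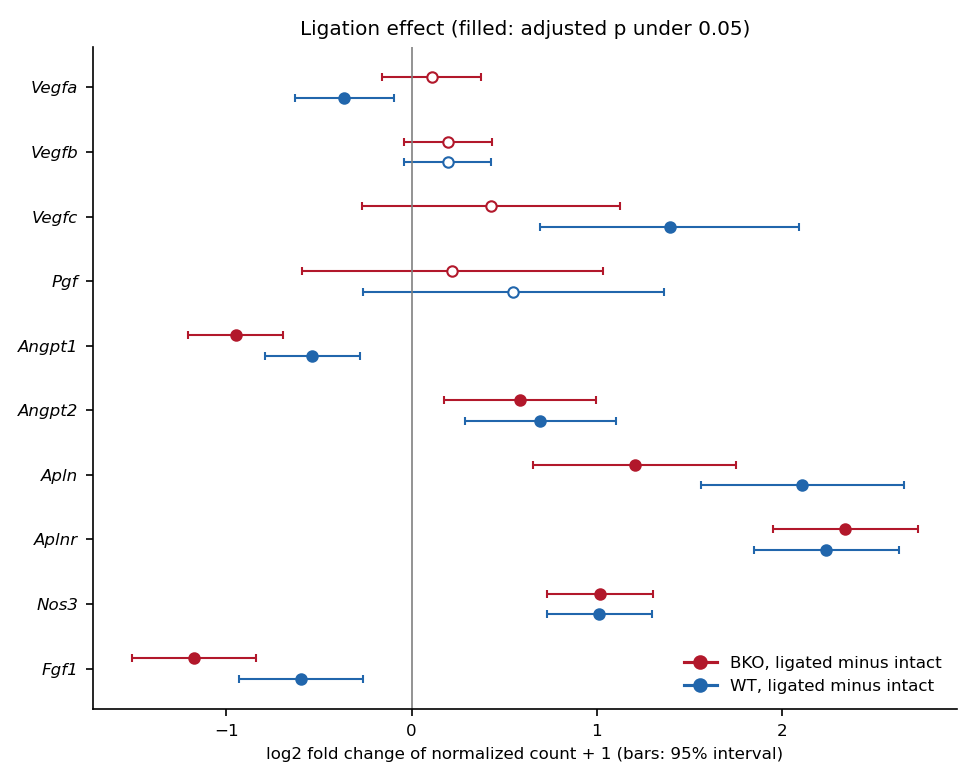
Log2 change of each gene in ligated against intact muscle, in BKO (drawn above) and in WT, with 95% intervals from limma; filled points are called at an adjusted p under 0.05. Aplnr is at 2.34 in BKO and 2.24 in WT, while Angpt1 and Fgf1 lie below 0 in both.

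Ratios within a library do not depend on its scaling. The log2 ratio of Angpt2 to Angpt1 was -1.24 ± 0.35 in BKO ligated (n = 4) and -2.77 ± 0.37 in BKO intact muscle (SD, n = 5). In WT it was -1.67 ± 0.13 in ligated (n = 4) and -2.90 ± 0.30 in intact muscle (SD, n = 5). The rise was 1.54 in BKO and 1.23 in WT, with all 4 ligated libraries above all 5 intact ones in each (exact two-sided permutation p = 0.0159 in both, the smallest this design allows, and adjusted p = 0.0476 over 12 ratio tests).

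The ratios of Aplnr and Nos3 to the sum of 10 endothelial markers differed. For Aplnr the log2 ratio was 1.44 higher in ligated than in intact muscle of BKO and 1.37 higher in that of WT, with no overlap (exact permutation adjusted p = 0.0476 in both). For Nos3 it was -4.87 ± 0.15 in BKO ligated (n = 4) and -4.98 ± 0.15 in BKO intact muscle (SD, n = 5), and -4.80 ± 0.09 in WT ligated (n = 4) and -4.94 ± 0.09 in WT intact muscle (SD, n = 5). These differences of 0.11 in BKO and 0.14 in WT did not pass (exact permutation p = 0.302 and p = 0.0476, adjusted p = 0.446 and 0.114). Aplnr thus rose beyond the summed markers, and for Nos3 a rise beyond them was not shown.

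**Figure D3:**
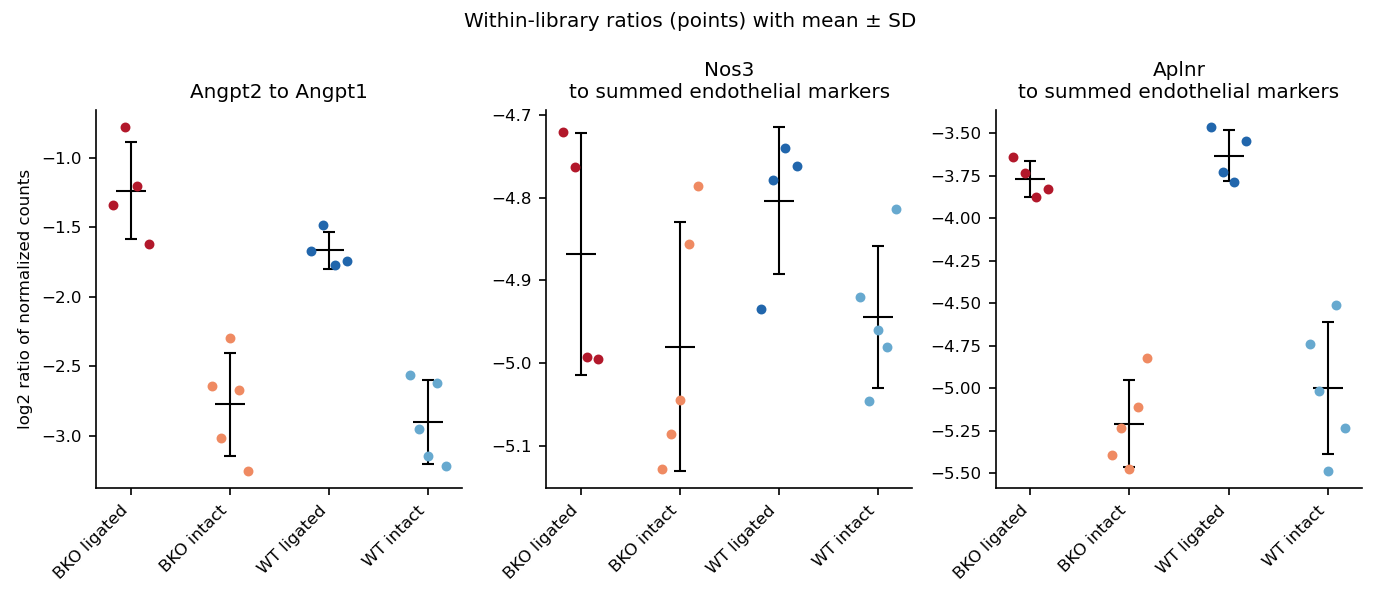
The 3 log2 ratios (Angpt2 to Angpt1, Nos3 and Aplnr to the summed endothelial markers) in every library of BKO ligated, BKO intact, WT ligated and WT intact muscle; points are libraries and bars are means with SD. The Angpt2 to Angpt1 ratio has means of -1.24, -2.77, -1.67 and -2.90 in that order.

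Endothelial markers rose with ligation. Of 10 tested markers 10 were higher in BKO and 9 in WT, with median log2 changes of 0.93 and 0.89, and none was at 0 in any library. Their summed level was 3373 to 4290 normalized counts in BKO ligated and 1884 to 2258 in BKO intact muscle, and 3191 to 3957 in WT ligated and 1793 to 2115 in WT intact muscle. Cldn5, a tight junction protein of endothelium, changed by 1.61 ± 0.18 in BKO and 1.86 ± 0.18 in WT. The receptors of the ligands moved with them. Of 5 VEGF receptors and co-receptors 4 rose in each genotype, among them the co-receptor Nrp1 at 0.59 ± 0.09 in BKO and 0.83 ± 0.09 in WT. The main VEGFA receptor Kdr was at 0.44 ± 0.16 in BKO (limma adjusted p = 0.0302) and 0.51 ± 0.16 in WT (adjusted p = 0.0155). All 3 genes of the angiopoietin receptors rose in both, with Tek at 0.94 ± 0.18 in BKO and 0.55 ± 0.18 in WT and Tie1, which pairs with TIE2, at 1.16 ± 0.14 in BKO and 1.39 ± 0.14 in WT. Of 4 tested FGF receptors 3 rose in BKO and 2 in WT, led by Fgfrl1, a receptor without a kinase domain, at 2.22 ± 0.16 in BKO and 2.51 ± 0.16 in WT. Flt1 passed in neither genotype and Fgfr1 only in BKO, at 0.43 ± 0.13 (adjusted p = 0.0122) against 0.02 ± 0.13 in WT (adjusted p = 0.915). The background was 22.1% of all genes higher in BKO and 18.7% in WT.

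The nitric oxide list held 8 tested genes, the other synthases Nos1 and Nos2 and partners of NOS3, of which 2 rose in BKO and 4 rose and 1 fell in WT. Over all genes tested, 22.1% rose and 25.1% fell in BKO, and 18.7% rose and 21.1% fell in WT. Cav1, which binds and restrains NOS3 in caveolae, was at 0.91 ± 0.12 in BKO and 1.16 ± 0.12 in WT. Nos2, the inducible synthase, rose by 1.52 ± 0.29 in BKO (limma adjusted p = 0.000213) and 0.84 ± 0.29 in WT (adjusted p = 0.0245). Ddah1, which clears an inhibitor of the synthases, fell in WT by 0.72 on the log2 scale (SE 0.21). Downstream, of 5 genes of soluble guanylate cyclase and its effectors 4 rose and 1 fell in BKO and 3 rose and 1 fell in WT. Gucy1a1, a subunit of the cyclase, was at 1.17 ± 0.15 in BKO and 0.79 ± 0.15 in WT, and the kinase gene Prkg1 was the member that fell, at -0.62 ± 0.15 in BKO and -0.41 ± 0.15 in WT. The falls of Ddah1 and Prkg1 in WT were not called under the scaling to nuclear genes.

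Genes that respond to low oxygen were split by the main test. Of 9 tested, 2 rose and 4 fell in BKO, where 22.1% of all genes rose and 25.1% fell. In WT 1 rose and 3 fell, where 18.7% of all genes rose and 21.1% fell. Under the scaling to nuclear genes 4 of these rose and 0 fell in WT, where 4457 of all 12301 genes tested rose and 1145 fell. Pdk1, a kinase that limits pyruvate use, was at -0.98 ± 0.16 in BKO and -0.47 ± 0.16 in WT, and Ddit4, a stress gene that curbs mTORC1, rose by 0.97 ± 0.23 in BKO and 1.08 ± 0.23 in WT. Of 6 oxygen sensors and HIF subunits 3 rose and 1 fell in BKO and 1 rose and 1 fell in WT (4 and 0 in WT under that scaling), with Hif1a at 0.39 ± 0.14 in BKO and 0.46 ± 0.14 in WT. Of 3 other regulators of Vegfa 1 rose and 1 fell in BKO, and 1 fell in WT. Ppargc1a, the coactivator that can drive Vegfa in muscle without HIF, was at -1.29 ± 0.18 in BKO and -0.95 ± 0.18 in WT, while its relative Ppargc1b was at 0.67 ± 0.19 in BKO (limma adjusted p = 0.00700) and -0.16 ± 0.19 in WT (adjusted p = 0.526). Of the 7 other ligands on the list 6 were in the table, and of these only Vegfd and Fgf7 were high enough to test. Fgf7, a growth factor that acts on epithelium, was at 0.78 ± 0.36 in BKO (limma adjusted p = 0.0781) and 0.49 ± 0.36 in WT (adjusted p = 0.291), and Vegfd was at -0.20 ± 0.35 in BKO (limma adjusted p = 0.670) and -1.44 ± 0.35 in WT (adjusted p = 0.0025).

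Lists of markers of other cell types are set here against the 22.1% of all genes higher and 25.1% lower in BKO, and the 18.7% higher and 21.1% lower in WT. Adipocyte markers rose for 9 of 10 in BKO and 10 of 10 in WT, with sums of 4277 to 8548 normalized counts in BKO ligated and 2722 to 3300 in BKO intact muscle, and 8154 to 11390 in WT ligated and 2542 to 3286 in WT intact muscle. Macrophage markers rose for 1 of 8 tested in BKO and 5 of 8 in WT, and fibro-adipogenic progenitor markers for 4 of 9 in BKO and 5 of 9 in WT. Smooth muscle and pericyte markers split, with 5 higher and 2 lower of 10 in each genotype. In each genotype 1 of 5 lymphatic endothelial markers rose, which, like 1 of 8 macrophage markers in BKO, is a share near or under that of all genes. Under the scaling to nuclear genes 4 of 5 lymphatic endothelial and 8 of 8 macrophage markers rose in WT, where that scaling also raised the number of all genes called higher. Of 8 myofibre markers none rose and 5 fell in each genotype, and of 4 platelet and blood cell markers 2 fell in BKO and none changed in WT (0 at an unadjusted p under 0.05). The part of these cell types in the levels of the 10 genes was not tested.

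**Figure D4:**
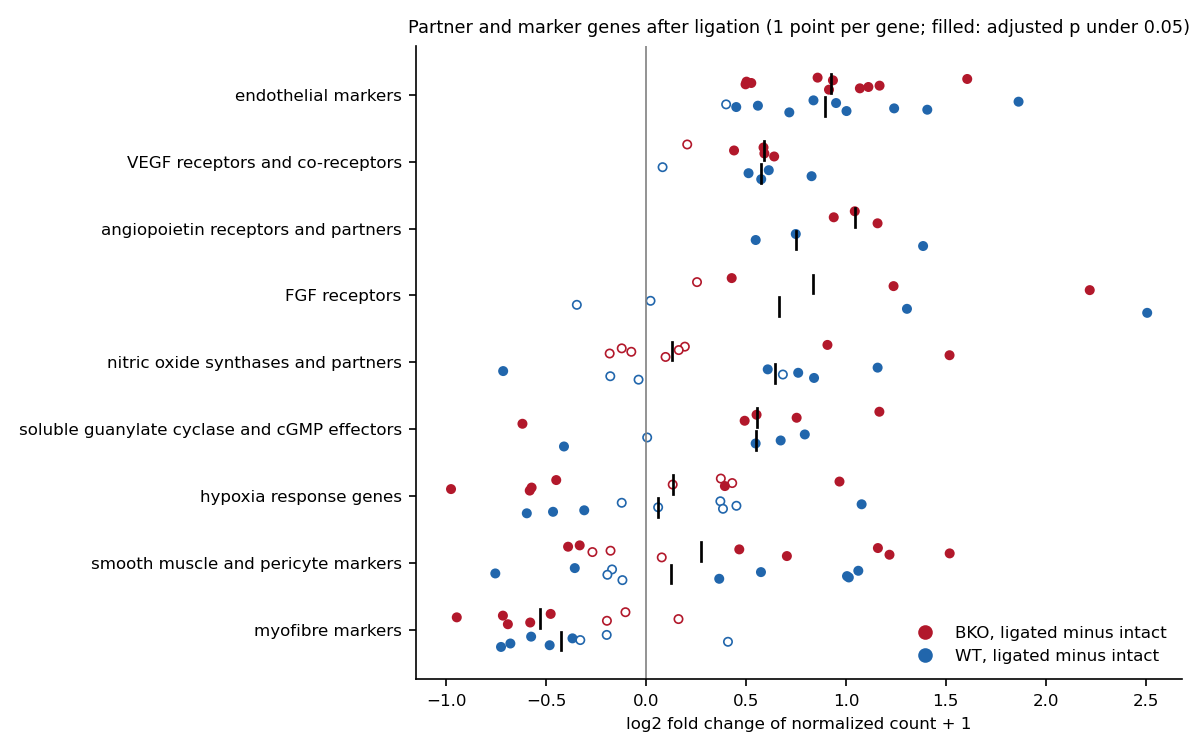
Log2 change in ligated against intact muscle of the tested genes of 9 partner and marker lists, in BKO (drawn above) and in WT; each point is 1 gene and each black mark is the list's median. The endothelial markers have medians of 0.93 in BKO and 0.89 in WT, the myofibre markers have medians of -0.53 in BKO and -0.43 in WT, and filled points are called at an adjusted p under 0.05.

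The comparison of BKO with WT asks whether deletion of Bmal1 in the fibres changed these genes. In each limb 1 of the 10 passed. Fgf1 was higher in BKO intact muscle, where 18.3% of all genes tested changed (8.56% higher, 9.75% lower), and Vegfa was higher in BKO ligated muscle, where 8.84% changed (4.16% higher, 4.68% lower). The median log2 difference of the 10 genes was 0.12 in intact and -0.14 in ligated muscle, against 0.00 and -0.02 over all genes. Of the rest, 2 in each limb had an unadjusted p under 0.05 without passing, so that 3 of 10 in each limb were under it, against 30.3% of all genes in intact and 23.0% in ligated muscle. Scaled to nuclear genes, 1403 genes were higher and 855 lower in intact muscle and 356 higher and 956 lower in ligated muscle, against 1050 and 1196 in intact and 510 and 574 in ligated muscle by the main test.

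Vegfa averaged 1522 ± 162 normalized counts in BKO ligated and 991 ± 247 in WT ligated muscle (SD, n = 4 each). Of the 4 BKO libraries 3 were above all WT ones, and WT ligated replicate 4, at 1355, was above the lowest BKO value of 1336. The difference was 0.64 ± 0.14 on the log2 scale (1.56-fold, limma adjusted p = 0.00364), and it was 0.80 without WT ligated replicate 4. That library had the fewest reads of all libraries (14.1 M) and the largest mt-Rnr2 share of its group (45.3%). Before scaling it held 999 Vegfa reads, against 1003, 1008 and 1114 in the other WT ligated libraries. The part of its depth and scaling in its Vegfa value was not tested. In intact muscle Vegfa averaged 1412 ± 154 in BKO and 1256 ± 155 in WT (SD, n = 5 each), a difference of 0.17 ± 0.12 that did not pass (95% interval -0.08 to 0.42, adjusted p = 0.375).

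Fgf1 averaged 459 ± 59.8 normalized counts in BKO intact and 275 ± 66.4 in WT intact muscle (SD, n = 5 each), and all 5 BKO libraries were above all 5 WT ones. The difference was 0.76 ± 0.15 (1.69-fold, limma adjusted p = 0.00119). In ligated muscle Fgf1 averaged 204 ± 37.6 in BKO and 178 ± 19.3 in WT (SD, n = 4 each), with overlapping libraries and a difference of 0.18 ± 0.17 (95% interval -0.17 to 0.54, adjusted p = 0.577).

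The other 8 genes did not pass in either limb. Vegfb differed by -0.27 ± 0.12 in ligated muscle (limma adjusted p = 0.185) and by -0.27 ± 0.11 in intact muscle (limma adjusted p = 0.0908). Of its BKO libraries, 3 of 4 ligated and 4 of 5 intact ones were below all WT ones. In a fit of the intact groups alone its adjusted p was 0.0495 there. Angpt1 in ligated muscle was at -0.34 ± 0.13 (adjusted p = 0.118) and passed without BKO ligated replicate 6 (-0.43, adjusted p = 0.0467). In intact muscle Angpt1 was at 0.08 ± 0.12 (limma adjusted p = 0.724) and Vegfc at 0.30 ± 0.32 (limma adjusted p = 0.582). Vegfc in ligated muscle was at -0.67 ± 0.35 (adjusted p = 0.271), with all 4 BKO libraries, at 8.87 to 14.7 counts, below all 4 WT ones, at 15.7 to 25.8. Apln was at -0.38 ± 0.28 in ligated muscle (adjusted p = 0.458) and at 0.53 ± 0.25 in intact muscle (adjusted p = 0.153). Pgf was at -0.38 in ligated (95% interval -1.24 to 0.48) and -0.05 in intact muscle (-0.82 to 0.72), too wide to place it.

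Aplnr, Nos3 and Angpt2 stood near 0 between genotypes. In ligated muscle the difference was -0.01 for Aplnr (95% interval -0.42 to 0.40), 0.06 for Nos3 (-0.24 to 0.36) and 0.09 for Angpt2 (-0.34 to 0.52). In intact muscle it was -0.12 for Aplnr (-0.48 to 0.25), 0.06 for Nos3 (-0.21 to 0.33) and 0.20 for Angpt2 (-0.19 to 0.59). These intervals still allow differences of up to 0.59 on the log2 scale. The Angpt2 to Angpt1 log2 ratio in ligated muscle was -1.24 ± 0.35 in BKO and -1.67 ± 0.13 in WT (SD, n = 4 each), a difference of 0.43 that did not pass (exact two-sided permutation p = 0.0571, adjusted p = 0.114, smallest possible p = 0.0286).

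**Figure D5:**
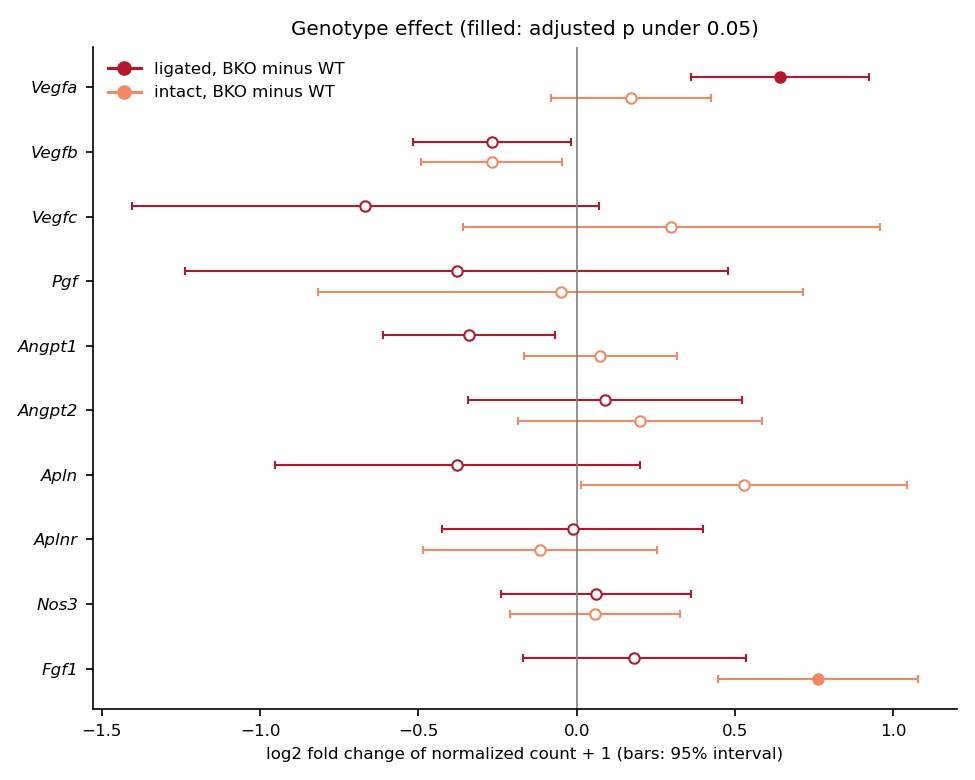
Log2 difference of each gene between BKO and WT, in ligated (drawn above) and in intact muscle, with 95% intervals from limma; filled points are called at an adjusted p under 0.05. Vegfa at 0.64 in ligated and Fgf1 at 0.76 in intact muscle are the filled points.

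Endothelial markers gave no call between genotypes, with 0 of 10 in ligated muscle (0 at an unadjusted p under 0.05) and 0 of 10 in intact muscle (2 at an unadjusted p under 0.05), and 0 in each by edgeR and DESeq2. For comparison, 8.84% of all genes tested were called in ligated and 18.3% in intact muscle. The shares of all genes at an unadjusted p under 0.05 are given above. Of the VEGF receptors, Nrp1 was higher in BKO intact muscle by 0.28 ± 0.08 (limma adjusted p = 0.0247), and no other passed in either limb. Smooth muscle and pericyte markers were lower in BKO intact muscle for 5 of 10 tested, where 9.75% of all genes were lower, and for 0 of 10 in ligated muscle. The 2 tested other ligands gave 1 lower in BKO intact and 0 in ligated muscle. Among genes that act with NOS3, Cav3, the caveolin of muscle fibres, was at 0.66 ± 0.13 and Nos1, the neuronal synthase found in fibres, at -0.43 ± 0.13 in BKO intact muscle, and none of 8 passed in ligated muscle (4 at an unadjusted p under 0.05, 0 called by edgeR or DESeq2). In ligated muscle 1 of 9 hypoxia response genes and 1 of 3 other regulators of Vegfa passed, both lower in BKO, where 4.68% of all genes were lower. Bnip3, a mitophagy gene that responds to low oxygen, was lower by 0.47 on the log2 scale (SE 0.10, adjusted p = 0.00585), and the nuclear receptor Esrra was at -0.45 ± 0.14 (adjusted p = 0.0426). Ppargc1b was at 0.49 ± 0.20 and did not pass (adjusted p = 0.148). Summed macrophage markers were at 538 to 899 normalized counts in BKO ligated and 997 to 1219 in WT ligated muscle, and adipocyte markers at 4277 to 8548 in BKO ligated and 8154 to 11390 in WT ligated muscle. Summed fibro-adipogenic progenitor markers were at 3833 to 5470 in BKO ligated and 5709 to 6260 in WT ligated muscle. Summed myofibre markers were at 882140 to 974846 in BKO ligated and 763932 to 892274 in WT ligated muscle. The part of these cell types in the Vegfa difference was not tested.

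The interaction asks whether ligation acted differently in the genotypes. It subtracts the WT change from the BKO change. None of the 10 genes passed, by limma, edgeR or DESeq2, where 6.01% of all genes passed by limma (3.04% higher, 2.97% lower). These were 373 genes higher and 364 lower, against 233 higher and 1065 lower when libraries were scaled to nuclear genes. At an unadjusted p under 0.05 there were 4 by limma, against 21.7% of all genes. Vegfa was at 0.47 ± 0.18 (adjusted p = 0.125), Fgf1 at -0.58 ± 0.23 (adjusted p = 0.133), Apln at -0.91 ± 0.37 (adjusted p = 0.153) and Angpt1 at -0.41 ± 0.17 (adjusted p = 0.166). So a call in 1 genotype and none in the other, as for Vegfa and Vegfc, is not shown to be a difference between them. Without WT ligated replicate 4, Vegfa passed at 0.63 (adjusted p = 0.0138).

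The genes whose log2 levels followed a member most closely over the 18 libraries, by the root mean square difference after centring, were looked up among tested genes with a mean of at least 50. Nos3 had Ets1, Cdh5 and Ptprb as its nearest, at 0.15 to 0.17, where the median gene was at 0.63. Fgf1 had Acsl1, Ephx2 and Acadm at 0.20 to 0.24 (median 0.61). Aplnr had Fgfrl1, Pxdn and Col3a1 at 0.36 to 0.38 (median 1.24), and Apln had Cd93, Mgll and Adamts12 at 0.38 to 0.43 (median 0.99). Vegfa had Lcor, Hnrnpm and Pnisr at 0.14 to 0.17 (median 0.42). Angpt1 had Rps24, Fut8 and Abce1 at 0.14 to 0.15 (median 0.46), Angpt2 had Slfn5, Jcad and Mfsd14a at 0.18 to 0.19 (median 0.50), and Vegfc had Ifitm3, Cavin3 and Acsl5 at 0.39 (median 0.73). These libraries share the 4 groups and their scaling, so likeness here describes levels only.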

How the data were processed

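The authors' deposited values are normalized counts, used as a signal with no length correction. Per the labels' protocols, TruSeq stranded total RNA libraries were sequenced. The submitters' processing notes name Trimmomatic 0.33, STAR 2.5.2, RSEM 1.3.3, DESeq2 and mm10, with no order, role or DESeq2 version. No label or header gives the annotation or strand setting of the counting, so the split of overlapping genes is uncertain. Within 0.001, 100% of the values were whole reads divided by 1 factor per library, which gave the depth. In WT intact replicate 6 and BKO ligated replicate 2 that factor lay near 1, where wholeness tells less. Read numbers limit the precision of low genes.

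Genes with a mean of at least 10 (12262) were tested with limma 3.58.1 in R 4.3.3 on log2(normalized count + 1), a scale that understates changes of low genes. A single fit with 4 group means and an intensity trend held all 18 libraries, and a call needed a Benjamini-Hochberg adjusted p under 0.05 over all genes tested. Errors beside log2 changes are standard errors. The test was tried on simulated data. Ratios had exact permutation tests over libraries (scipy 1.17.1, 1 added to each term). Alternatives were edgeR 4.0.16 and DESeq2 1.42.0 on recovered reads, other filters, pseudocounts and scalings, a replicate block, and each library left out. Coordinates and exon lengths come from GENCODE for mm10. All 10 genes are named in every comparison, with up to 4 genes of smallest p from each list. Genes and lists were chosen with earlier results of these data known. Nothing states that each library is its own animal, so the p-values reflect the spread among these libraries, which may be technical.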

Additional observations from a re-analysis of the deposited data

How the results depend on the processing

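Of 16 calls on single genes, 12 kept their direction and call under every alternative in which the gene was tested. Among them were Aplnr, Apln and Nos3 in both genotypes, Vegfa between genotypes in ligated and Fgf1 in intact muscle. Apln and Vegfc were too low to be tested with the filter at a mean of 50. The other 4 were Angpt2 in BKO and the falls of Vegfa, Angpt1 and Fgf1 in WT, given above. Vegfa in WT also missed the threshold with edgeR (-0.32, adjusted p = 0.0612), without the intensity trend (adjusted p = 0.0528) and in a fit of the WT groups alone (adjusted p = 0.0510), over a range of 0.000894 to 0.627 across 30 alternatives. Under the scaling to nuclear genes the 8 WT calls became 6 higher and 0 lower; the medians of all genes shifted by 0.27 (WT) and 0.12 (BKO) for ligation, -0.10 for the ligated limbs between genotypes and -0.16 for the interaction.

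With a filter at a mean of 50, 5 genes were called for ligation in WT, since fewer of the 10 entered the test. With only the groups compared, 2 were called between genotypes in intact limbs (Fgf1 and Vegfb). Leaving out 1 library gave 7 to 8 called for ligation in WT, 5 to 6 in BKO, 1 to 2 between genotypes in ligated limbs and 0 to 1 for the interaction. The change of the Nos3 to endothelial ratio with ligation in WT ranged from 0.115 to 0.184 and passed an unadjusted exact p of 0.05 in no such set but the one without WT ligated replicate 2; between genotypes in intact limbs it ranged from -0.0844 to 0.00105. With a library of the comparison left out the exact test has fewer arrangements, and no adjusted p of a ratio passed (lowest 0.0857).

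Signs turned for changes near 0 that passed no test. Under nuclear scaling these were the interactions of Vegfb (-0.151), Aplnr (-0.0489) and Nos3 (-0.148), Nos3 in ligated (-0.0193) and Pgf in intact limbs (0.0117) between genotypes. Without both BKO ligated libraries with most mt-Rnr2, a setting chosen after seeing the data, they were Angpt2 (-0.161) and Nos3 (-0.0514) in ligated limbs and the interactions of Nos3 (-0.109) and Vegfb (-0.0703). The Nos3 interaction was -0.000781 with DESeq2. Leaving out 1 library gave interactions of -0.109 to 0.0943 (Vegfb), -0.238 to 0.0182 (Angpt2), -0.0253 to 0.25 (Aplnr) and -0.0832 to 0.0691 (Nos3). Between genotypes it gave -0.0372 to 0.219 (Angpt2), -0.116 to 0.0675 (Aplnr) and -0.0256 to 0.127 (Nos3) in ligated limbs, and -0.216 to 0.0919 (Pgf), -0.263 to 0.0123 (Aplnr) and -0.00487 to 0.122 (Nos3) in intact limbs. The causes were not tested.

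Libraries with the same replicate number were not detectably alike. Over 7 such pairs the correlation of deviations was -0.064 to 0.048, and 1 of 7 ligated libraries was closest to its own number. This cannot tell whether equal numbers come from the same mouse. For ligation and the interaction, the replicate block joined libraries of equal number within a genotype. Between genotypes it joined equal numbers across WT and BKO, which are different mice, so those numbers carry no pairing. Fits with the block left the calls at 8, 6, 1, 1 and 0 genes. They turned the signs of Pgf in intact limbs (0.146) and of the interactions of Angpt2 (0.00868), Aplnr (-0.0302) and Nos3 (-0.00505). Over all genes the interaction calls were 737 in the main test, 382 under the block, 450 without the trend, 402 or 461 without WT ligated replicate 2 or 5, 269 without both libraries above, 1137 with DESeq2 and 1298 under nuclear scaling. Between genotypes in ligated limbs, the count was 1084 in the main test and 617 without both. The test planned for genes with a mean under 10 was not run, since none of the 10 was that low.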
